A study of Mus musculus with 16 samples.

Results

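Antibodies are built from paired heavy and light chains, and the constant regions of these chains are encoded by a small set of genes. A B cell first uses the mu gene Ighm, and by alternative splicing the delta gene Ighd. Class switch recombination then deletes the DNA in between and joins the variable region to a gamma, epsilon or alpha gene. The light chain comes from the kappa locus or from the lambda locus, and its constant gene is not switched. In the germinal centre, where B cells mutate their variable regions and are selected for antigen binding, IgM+ and switched cells coexist. A sorted population therefore holds mRNAs of several constant region genes.

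The 10 genes described here were the rows named Ighm, Ighd, Ighg3, Ighg1, Ighg2b, Ighg2c, Igha, Igkc, Iglc1 and Iglc2 in the deposited count table, 10 of 48593 genes. Of these, 7 are heavy chain and 3 are light chain constant genes, and all 10 passed the count filter that left 16606 genes for testing. They took between 0.887% and 1.21% of the counts of a library. The lowest count behind any value was 406, for Igha, and the highest was 344391, for Ighm.

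RNA was sequenced from splenic germinal centre B cells sorted as B220+, PNA+ and CD95+ of mice that had received sheep red blood cells as antigen. Crebbp, the gene altered in the study, encodes a histone acetyltransferase. KO libraries (n = 3) came from mice with a conditional knockout of Crebbp that the title calls specific to germinal centres, and KO cohort WT libraries (n = 3) were their wild type. RH HOMO (n = 3), RH HET (n = 4) and RH cohort WT (n = 3) libraries came from mice that were homozygous for, heterozygous for or without a conditional arginine-to-histidine knock-in of Crebbp. All mice were immunised, and the labels name neither the Cre driver nor whether the wild type mice carried it. The time from antigen to sorting is given as 12 days in the growth protocol but as 10 days in a tag.

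The 16 libraries held 41362856 to 93040297 counts. Crebbp mRNA lay at 108.0 to 136.9 CPM (counts scaled to the library total by TMM) in KO, against 126.5 to 148.6 CPM in KO cohort WT, and as the deleted part is not labelled, this level does not check the knockout. It lay at 68.6 to 125.8 CPM in RH HOMO and at 123.8 to 137.6 CPM in RH HET, against 91.3 to 122.2 CPM in RH cohort WT. All 14 germinal centre B cell markers were above 0 in the table, with summed levels of 10805 to 14279 CPM, while neutrophil markers summed to at most 0.530 CPM and macrophage markers to at most 32.7 CPM. T cell markers summed to 77.9 to 160.4 CPM and stromal and endothelial markers to 43.6 to 73.8 CPM over the 16 libraries. In KO most of each sum came from 1 gene. There Lck averaged 78.0 CPM, where the T cell sums were 77.9 to 82.3 CPM. Pecam1 averaged 45.1 CPM, where the stromal and endothelial sums were 43.6 to 47.8 CPM. For the RH groups, among which the T cell sum reached 160.4 CPM, the part of single genes is not given here. Only 4 of 9 T cell markers and 2 of 7 stromal and endothelial markers passed the count filter. RH HOMO 2 and RH cohort WT 1 stood apart on the first principal component of all genes, with values of 77.1 and 50.7, where the rest ranged over -40.7 to 24.3. RH cohort WT 1 also carries the batch tag of the KO cohort, although its title puts it in the RH cohort.

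The IgG genes lie next to each other on chromosome 12, on the minus strand between Ighm and Igha, and their proteins differ most in the hinge, where cysteines bridge the heavy chains. Their hinge exons are shown for that reason. The sequences were read from GENCODE M21 transcripts on GRCm38 and run 5′ to 3′, with in-frame cysteine codons that lie within the exon in capitals.
Ighg3 (chr12:113360529-113360576): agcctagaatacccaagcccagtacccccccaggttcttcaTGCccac
Ighg1 (chr12:113329844-113329882): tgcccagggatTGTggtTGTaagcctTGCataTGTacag
Ighg2b (chr12:113307261-113307326): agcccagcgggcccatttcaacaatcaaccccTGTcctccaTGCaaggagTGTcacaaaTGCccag
Ighg2c (chr12:113288263-113288325): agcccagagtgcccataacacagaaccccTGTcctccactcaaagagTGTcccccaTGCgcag
The Ighg3 exon holds 1 such codon, Ighg1 and Ighg2b hold 4 each, and Ighg2c holds 3. Over whole transcripts, 94.5% of the 50-base windows of Ighg2c, 95.9% of those of Ighg2b, 98.4% of those of Ighg3 and 99.6% of those of Ighg1 occurred in no other gene's transcripts, and all 100-base windows did. Ighg2b and Ighg2c shared the most windows, with each other.

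Per length of exon, Igkc was the most abundant member, at 4801 to 10132 CPM per kb over the 16 libraries, followed by Ighm at 1224 to 2606 CPM per kb and Ighg1 at 422.2 to 1322 CPM per kb. Ighm exceeded Ighg1 per kb of exon in all libraries but KO 2, which had 1224 CPM per kb of Ighm and 1322 CPM per kb of Ighg1. That order depended on the length used: per kb of the shorter annotated transcript, Ighm made up 26.8% to 39.1% and Ighg1 43.2% to 55.2% of the heavy constant counts per kb in KO, so Ighg1 was above Ighm in all 3 KO libraries. Iglc1 (220.3 to 416.6 CPM per kb), Ighg3 (118.6 to 312.4), Ighg2b (81.5 to 336.2) and Iglc2 (67.1 to 186.5) formed a middle range with overlapping levels. Ighd (45.2 to 97.0 CPM per kb) and Ighg2c (12.3 to 130.3) were lower, and Igha (3.48 to 12.1) was the lowest. Ighg2c also varied most, with its highest library 10.6-fold above its lowest, while Iglc1 varied least, by 1.89-fold.

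**Figure D1:**
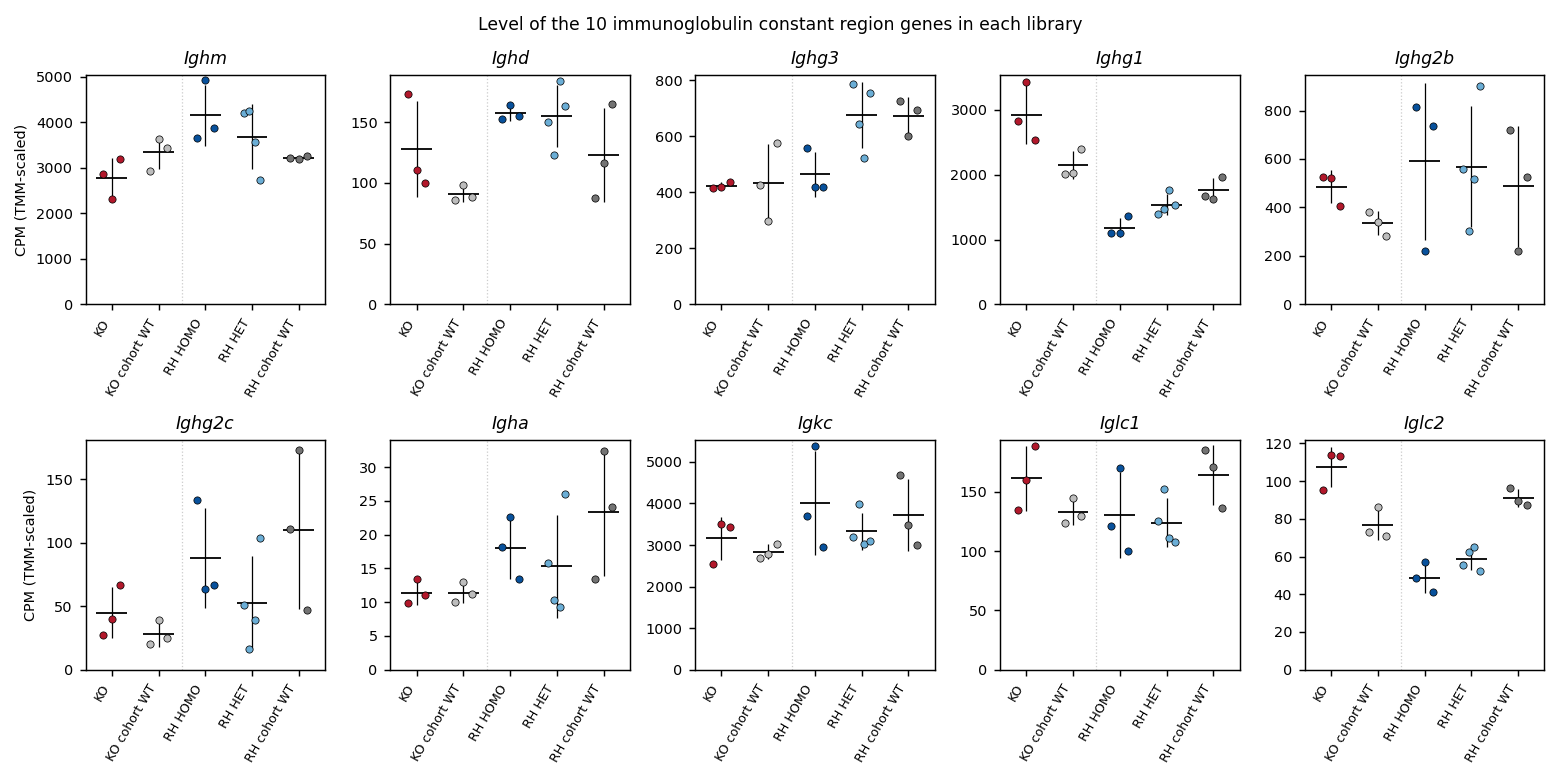
Level of each constant region gene in CPM (TMM-scaled, linear axis from 0), with 1 point per library, the group mean as a line and the SD as a bar. KO points lie above KO cohort WT for Ighg1 and Iglc2, and RH HOMO points lie below RH cohort WT for both genes.

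The first question was whether the alterations of Crebbp went with other constant region levels. No member passed the test in KO, where 1.3% of all tested genes were called (edgeR quasi-likelihood test, Benjamini-Hochberg adjusted over all 16606 genes). At an unadjusted edgeR p under 0.05 there were 3 of 10 members, Ighd, Ighg1 and Iglc2, against 2012 of all genes (12.1%). DESeq2 called 2 of 10, Ighg1 and Iglc2, both higher, against 549 of all genes (3.73% of those it gave an adjusted p). In RH HOMO, Ighg1 and Iglc2 fell, 2 of 10 members, against 1.57% of all genes called. In RH HET 0 of 10 members were called, against 0.0181% of all genes. At an unadjusted edgeR p under 0.05 there were 3 of 10, Ighg2c, Iglc1 and Iglc2, all lower, against 1192 of all genes (7.18%), and DESeq2 called 1 of 10, lower, against 39 of all genes (0.242%). Between RH HOMO and RH HET no gene was called (0%), although 3 of 10 members and 1889 of all genes (11.4%) had an unadjusted p under 0.05, and DESeq2 called 0 members and 122 genes (0.735%). Whether every library was a separate mouse is not labelled, so these p-values measure the spread between libraries.

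The median log2 change of the 10 members was 0.36 in KO, -0.33 in RH HOMO and -0.18 in RH HET, where the medians over all tested genes were -0.0021, 0.0161 and -0.0069. The 2 groups did not overlap in CPM for 4 members in KO (Ighd, Ighg1, Ighg2b and Iglc2), against 25.4% of all tested genes, and for 4 in RH HOMO (Ighm, Ighg3, Ighg1 and Iglc2), against 15.4%. For RH HET this held for Iglc2, against 6.49% of genes, and between RH HOMO and RH HET for Ighg1, against 8.06%. In bulk RNA, a change in the number of cells of an isotype cannot be told apart from a change in mRNA per cell. Counts per gene also do not show whether a constant region transcript carried a variable region.

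**Figure D2:**
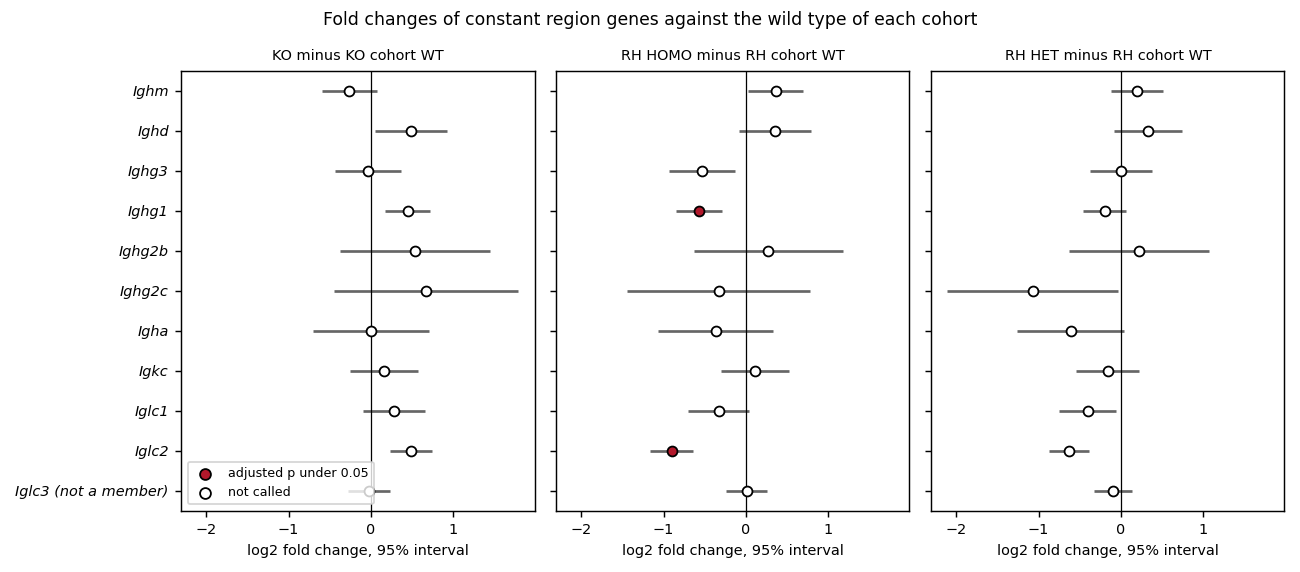
Log2 fold change with its 95% interval for the 10 members and for Iglc3, in KO, RH HOMO and RH HET against the wild type of the same cohort, with filled points at an adjusted p under 0.05. Ighg1 and Iglc2 are the filled points, both in RH HOMO, and Iglc3 lies near 0 in all 3 panels.

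Ighm encodes the mu chain of IgM, which unswitched cells carry as their antigen receptor. It was counted at 2854, 2309 and 3184 CPM in KO, against 2925, 3640.2 and 3441 CPM in KO cohort WT. It stood at 3659, 4916 and 3877 CPM in RH HOMO and at 4198, 4245, 3559.8 and 2738 CPM in RH HET, against 3216, 3202 and 3252 CPM in RH cohort WT. All RH HOMO libraries lay above the closely spaced RH cohort WT libraries, while RH HET fell on both sides of them and KO overlapped its wild type. None of these differences passed the test, with log2 changes of -0.26 ± 0.16 (SE) in KO, 0.36 ± 0.16 in RH HOMO and 0.19 ± 0.15 in RH HET.

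Ighd, spliced from the same primary transcript as Ighm in naive cells and reduced in germinal centres, had 173.6, 110.7 and 99.9 CPM in KO and 86.0, 98.7 and 88.5 CPM in KO cohort WT. In RH HOMO it had 152.5, 164.1 and 155.4 CPM, in RH HET 149.8, 122.9, 184.3 and 163.0 CPM, and in RH cohort WT 87.7, 116.4 and 164.7 CPM. KO libraries lay above their wild type, KO 1 by the most, and the RH groups overlapped. Its log2 changes were 0.49 ± 0.21 (SE) in KO, 0.36 ± 0.21 in RH HOMO and 0.33 ± 0.19 in RH HET, none past the threshold. Per 100 Ighm counts there were 3.14 to 6.08 Ighd counts in KO, against 2.57 to 2.94 in KO cohort WT. Markers of naive follicular B cells, which carry IgD, had 0 of 8 called in KO, against 1.3% of all genes, and 0 of 8 in RH HET, against 0.0181%. In RH HOMO 1 of 8 was called, against 1.57% of all genes. It was Gpr183, a chemoattractant receptor, which was higher by 0.92 ± 0.22 (SE, edgeR adjusted p = 0.0443). The summed level of these 8 markers was 606.3 to 690.5 CPM in KO against 696.5 to 786.4 CPM in KO cohort WT, and 565.5 to 655.6 CPM in RH HOMO against 556.9 to 781.2 CPM in RH cohort WT. By single genes, 5 of the 8 had a positive log2 change in KO, with a median log2 change of 0.30, and 5 of the 8 in RH HOMO, with a median of 0.27, against medians over all genes of -0.0021 and 0.0161. The part of naive cells in the Ighd values was not tested.

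Ighg1, the IgG1 heavy chain and the most abundant switched gene here, had 2824, 3427 and 2533 CPM in KO, against 2014, 2033 and 2395 CPM in KO cohort WT. RH HOMO libraries had 1094, 1105 and 1359.6 CPM and RH HET libraries 1388, 1472, 1759.5 and 1527 CPM, against 1677, 1630.1 and 1970.1 CPM in RH cohort WT. Every KO library was above every KO cohort WT library, every RH HOMO library was below every RH HET and RH cohort WT library, and RH HET overlapped RH cohort WT. In RH HOMO the gene fell to 1186 ± 150.1 CPM, against 1759 ± 184.1 CPM in RH cohort WT (SD, n = 3 each). The log2 change was -0.57 ± 0.13 (SE, 95% interval -0.85 to -0.29, edgeR adjusted p = 0.0377). Its log2 change was 0.45 ± 0.13 in KO (SE, adjusted p = 0.123), -0.20 ± 0.12 in RH HET (adjusted p = 0.760) and -0.37 ± 0.12 in RH HOMO against RH HET (adjusted p = 0.344).

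The Ighg1 call in RH HOMO was lost in 8 of 14 alternative fits, with log2 changes between -0.72 and -0.48 throughout. It was lost without RH HOMO 1 (adjusted p = 0.130), without RH HOMO 2 (adjusted p = 0.0839), without RH cohort WT 1 (adjusted p = 0.0785), without RH cohort WT 2 (adjusted p = 0.0741), and without RH cohort WT 3 (adjusted p = 0.118). It was also lost with RH cohort WT 1 moved to the KO cohort (adjusted p = 0.120), without RH cohort WT 1 and RH HOMO 2 together (adjusted p = 0.135) and in a fit of the compared libraries alone (adjusted p = 0.241). The 2 cohorts differed in the direction of this gene: its change in RH HOMO less its change in KO was -1.02 ± 0.19 on the log2 scale (SE, edgeR adjusted p = 0.0282), and 0.241% of all genes were called in that test. This difference was called in 8 of 15 alternatives. These were DESeq2, its size factors, 12 fits with 1 library left out and 1 without RH cohort WT 1 and RH HOMO 2. The difference was not refitted with RH cohort WT 1 moved to the KO cohort, with all wild types as 1 control, without the count filter or on the compared libraries alone.

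Ighg3, the most upstream gamma gene, had 414.0, 418.8 and 437.8 CPM in KO, within the 425.7, 297.9 and 574.8 CPM of KO cohort WT. It had 557.2, 417.8 and 418.4 CPM in RH HOMO and 784.8, 642.1, 521.9 and 753.5 CPM in RH HET, against 726.2, 599.5 and 693.7 CPM in RH cohort WT. RH HOMO lay below RH cohort WT in every library, and RH HET surrounded it. The log2 change of -0.54 ± 0.19 in RH HOMO (SE, adjusted p = 0.202) and of -0.54 ± 0.18 in RH HOMO against RH HET (adjusted p = 0.344) did not pass the test, and KO was at -0.03 ± 0.19.

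Ighg2b and Ighg2c encode the heavy chains of IgG2b and IgG2c, which bind activating Fc receptors. Ighg2b had 526.6, 522.8 and 407.5 CPM in KO and 380.5, 340.4 and 283.3 CPM in KO cohort WT. It had 813.7, 218.4 and 737.4 CPM in RH HOMO, 557.2, 301.0, 516.3 and 900.4 CPM in RH HET, and 717.8, 222.3 and 524.6 CPM in RH cohort WT. KO libraries were all above their wild type by a log2 change of 0.54 ± 0.43 (SE, adjusted p = 0.711), and each RH group spanned a wide range with 1 low library. Fitted on the KO cohort alone the same change was called (adjusted p = 0.0305), in a fit that called 699 genes.

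Ighg2c had 27.5, 40.1 and 66.8 CPM in KO, against 19.97, 39.4 and 24.8 CPM in KO cohort WT. It had 133.5, 63.5 and 66.9 CPM in RH HOMO, 51.3, 16.3, 39.3 and 103.4 CPM in RH HET, and 111.0, 172.8 and 47.2 CPM in RH cohort WT. Libraries of each comparison overlapped, and the gene differed most between single libraries: Ighg2b counts exceeded Ighg2c counts 19.2-fold in KO 1 and 1.29-fold in RH cohort WT 2. Its log2 changes of 0.67 ± 0.53 in KO, -0.33 ± 0.53 in RH HOMO and -1.07 ± 0.49 in RH HET (SE) did not pass the test.

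Igha, the heavy chain of IgA, which is mainly made at mucosal sites, was counted at 9.86, 13.4 and 11.02 CPM in KO and 10.0, 12.9 and 11.1 CPM in KO cohort WT. It was counted at 18.1, 22.7 and 13.5 CPM in RH HOMO, at 15.8, 10.3, 9.29 and 26.0 CPM in RH HET and at 13.4, 32.3 and 24.2 CPM in RH cohort WT. The groups overlapped in each comparison, with log2 changes of 0.00 ± 0.33 in KO, -0.37 ± 0.33 in RH HOMO and -0.61 ± 0.31 in RH HET (SE). Ighe, the epsilon gene of IgE, is not a member but was also low, at 8.52 to 15.5 CPM in KO, 8.20 to 10.7 CPM in RH HOMO and 5.23 to 13.4 CPM in RH HET, with 5.49 to 9.21 CPM in KO cohort WT and 9.48 to 22.3 CPM in RH cohort WT. Its log2 changes of 0.89 ± 0.34 in KO and -0.94 ± 0.32 in RH HET (SE) were not called.

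The isotype make-up was then expressed as shares of the counts of the 7 heavy constant genes. The 5 switched genes made up 55.7%, 64.6% and 51.3% in KO, against 48.6%, 42.1% and 48.2% in KO cohort WT. They made up 40.7%, 26.5% and 39.2% in RH HOMO and 39.1%, 35.9%, 43.2% and 53.3% in RH HET, against 49.6%, 44.5% and 48.8% in RH cohort WT. KO lay above its wild type and RH HOMO below its wild type with no overlap, while RH HET overlapped both RH groups.

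The mean switched share was 57.2% ± 6.81 in KO and 46.3% ± 3.64 in KO cohort WT (SD, n = 3 each), a difference of 10.9 percentage points. It was 35.4% ± 7.82 in RH HOMO and 47.6% ± 2.75 in RH cohort WT, a difference of -12.2 points. The exact permutation p = 0.1 in each case is the smallest that 3 against 3 libraries allow. In RH HET the mean was 42.9% ± 7.57 (n = 4), a difference of -4.75 points with an exact permutation p = 0.314, and the smallest p possible there was 0.0286. Over all 44 share tests, 11 shares in 4 comparisons, the lowest Benjamini-Hochberg adjusted exact p was 0.251. With these numbers of libraries the adjusted p could not have gone below 0.0571, so no share could have passed a threshold of 0.05.

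Of these differences in the switched share, Ighg1 accounted for 9.36 points in KO and -9.62 points in RH HOMO. It made up 43.0% ± 6.42 of heavy counts in KO and 33.6% ± 1.94 in KO cohort WT, and 17.8% ± 2.37 in RH HOMO, 23.1% ± 3.21 in RH HET and 27.5% ± 1.96 in RH cohort WT (SD). Ighm made up 40.9% ± 6.79 in KO and 52.2% ± 3.56 in KO cohort WT, and 62.2% ± 7.81 in RH HOMO, 54.8% ± 7.91 in RH HET and 50.5% ± 2.71 in RH cohort WT. For each Ighm count, KO libraries had 0.796 to 1.48 Ighg1 counts, against 0.558 to 0.696 in KO cohort WT. RH HOMO libraries had 0.225 to 0.351 and RH HET libraries 0.331 to 0.558, against 0.509 to 0.606 in RH cohort WT. Ighg3 held 7.01% ± 1.44 in RH HOMO against 10.5% ± 0.537 in RH cohort WT. Ighg2b held 3.16% to 14.5% of heavy counts over all libraries, Ighd 1.30% to 2.80%, Ighg2c 0.239% to 2.89% and Igha 0.141% to 0.541%.

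**Figure D3:**
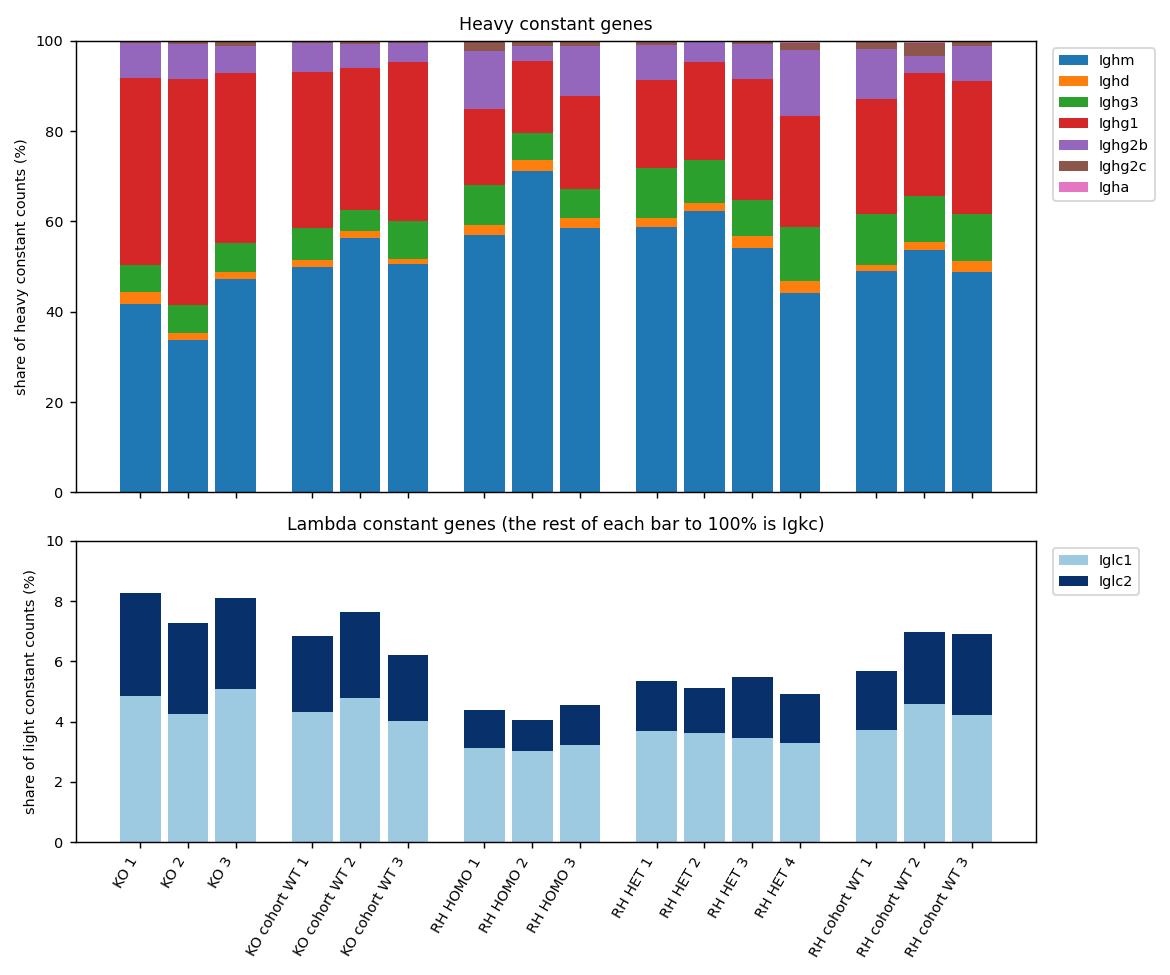
Shares of each library's heavy constant counts by gene (upper panel, %) and of its light constant counts in the lambda genes Iglc1 and Iglc2 (lower panel, %), with 1 bar per library. Ighg1 takes the widest band in KO and the narrowest in RH HOMO, and the lambda bars are shortest in RH HOMO.

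The summed heavy constant counts moved less than their make-up. They took 0.699% to 0.727% of a library in KO against 0.595% to 0.661% in KO cohort WT, and 0.638% to 0.673% in RH HOMO and 0.622% to 0.715% in RH HET against 0.584% to 0.664% in RH cohort WT. Summed light constant counts took 0.296% to 0.390% in KO, 0.315% to 0.542% in RH HOMO and 0.325% to 0.414% in RH HET, with 0.292% to 0.314% in KO cohort WT and 0.321% to 0.458% in RH cohort WT.

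Igkc encodes the kappa constant region, which most mouse B cells use. It was counted at 2554, 3497 and 3428 CPM in KO, against 2683, 2794 and 3033 CPM in KO cohort WT. It was counted at 3687, 5390.3 and 2960.4 CPM in RH HOMO and 3204, 3993, 3036 and 3108 CPM in RH HET, against 4686, 3477 and 3007 CPM in RH cohort WT. All groups overlapped and the highest values stood in RH HOMO 2 and RH cohort WT 1, the libraries that stood apart. The log2 changes were 0.16 ± 0.20 in KO, 0.11 ± 0.20 in RH HOMO and -0.16 ± 0.18 in RH HET (SE), none past the threshold.

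Likeness was measured as the Pearson r of the deviations of log2 CPM from the group means, across the 16 libraries. By this measure the genes closest to Igkc were Rpl28 (r = 0.99), Rpl36 (r = 0.99) and Rpl37rt (r = 0.99), the first and second of which encode ribosomal proteins. Ribosomal protein genes took 9.16% of counts in RH HOMO 2 and 7.16% in RH cohort WT 1, and between 3.88% and 7.004% in the other libraries. KO 1, the lowest library for Igkc, had the lowest ribosomal protein share, 3.88%. The lambda genes also varied with Igkc by the same measure, with r = 0.91 for Iglc1, 0.88 for Iglc3 and 0.72 for Iglc2. For the heavy genes r with Igkc ran from -0.64 (Ighd) to 0.37 (Ighm). The part of the ribosomal protein share in the Igkc and lambda values was not tested.

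**Figure D4:**
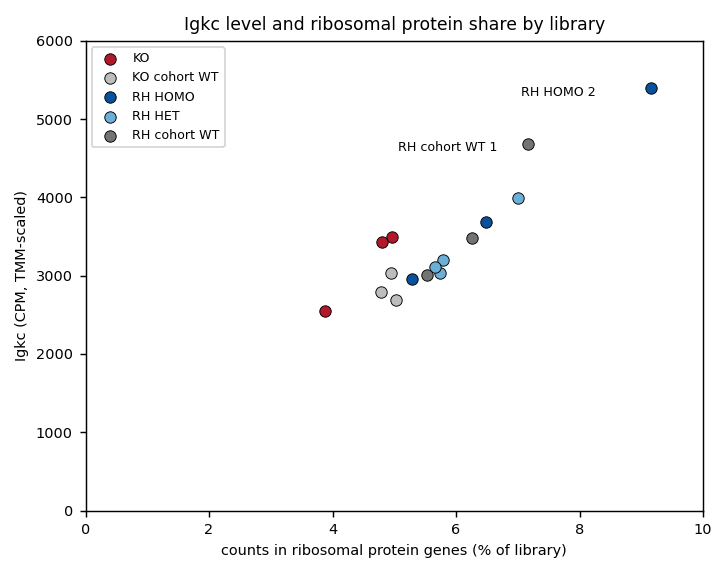
Igkc level (CPM, TMM-scaled) against the share of counts in ribosomal protein genes (% of the library), with 1 point per library coloured by group. RH HOMO 2 and RH cohort WT 1 are highest on the vertical axis, and KO 1 is lowest on both axes.

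For the other members whose likeness was examined, the closest genes by the same measure were Stau1 (r = 0.95), Fbxo42 (r = 0.87) and Asb3 (r = 0.86) for Ighg1, and Alkbh2 (r = 0.91), Il10rb (r = 0.89) and Atox1 (r = 0.89) for Iglc2. They were Sit1 (r = 0.86), Tesk1 (r = 0.86) and Il10ra (r = 0.81) for Ighm and Pea15a (r = 0.82), Manbal (r = 0.80) and Moap1 (r = 0.80) for Igha. These are the highest values among 10041 genes compared over 16 libraries, with the means of the 5 groups removed.

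The lambda locus holds several constant genes on chromosome 16, each joined to its own joining segment, and a lambda B cell expresses 1 of them. Iglc1 had 134.9, 160.3 and 189.2 CPM in KO and 124.1, 144.6 and 129.7 CPM in KO cohort WT. It had 120.9, 170.4 and 99.9995 CPM in RH HOMO, 125.1, 152.5, 110.9 and 107.9 CPM in RH HET, and 185.0, 171.0 and 136.1 CPM in RH cohort WT. The groups overlapped in each comparison, and the log2 changes of 0.28 ± 0.18 in KO, -0.33 ± 0.18 in RH HOMO and -0.40 ± 0.17 in RH HET (SE) were not called.

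Iglc2 fell furthest of all members in RH HOMO. It had 48.6, 56.9 and 41.1 CPM in RH HOMO and 55.6, 62.5, 64.8 and 52.5 CPM in RH HET, against 96.5, 89.7 and 87.2 CPM in RH cohort WT. It had 95.4, 114.1 and 113.1 CPM in KO, against 73.3, 86.1 and 70.8 CPM in KO cohort WT. Every RH HOMO and RH HET library was below every RH cohort WT library, RH HOMO overlapped RH HET, and every KO library was above every KO cohort WT library.

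In RH HOMO the mean was 48.8 ± 7.93 CPM, against 91.1 ± 4.77 CPM in RH cohort WT (SD, n = 3 each). The log2 change was -0.90 ± 0.12 (SE, 95% interval -1.16 to -0.64, edgeR adjusted p = 0.00149), which ranked 13 among all tested genes by p. It was -0.63 ± 0.11 in RH HET (SE, adjusted p = 0.113), 0.49 ± 0.12 in KO (adjusted p = 0.0633) and -0.27 ± 0.12 in RH HOMO against RH HET (adjusted p = 0.416). The RH HOMO call held in 13 of 14 alternative fits and was lost in the fit of the compared libraries alone (log2 change -0.90, adjusted p = 0.0738), in which no gene was called. The change in RH HOMO less that in KO was -1.39 ± 0.17 (SE, adjusted p = 0.00191) and was called in 15 of 15 alternatives. As for Ighg1, these did not include RH cohort WT 1 moved to the KO cohort, all wild types as 1 control or the compared libraries alone.

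Iglc3 is a near copy of Iglc2 in the same locus and is not a member. The last 300 coding bases of both genes (GENCODE M21, GRCm38, minus strand, 5′ to 3′) are shown because these genes took different courses. Capitals mark the 11 bases that differ.
Iglc2 (chr16:19198539-19198838): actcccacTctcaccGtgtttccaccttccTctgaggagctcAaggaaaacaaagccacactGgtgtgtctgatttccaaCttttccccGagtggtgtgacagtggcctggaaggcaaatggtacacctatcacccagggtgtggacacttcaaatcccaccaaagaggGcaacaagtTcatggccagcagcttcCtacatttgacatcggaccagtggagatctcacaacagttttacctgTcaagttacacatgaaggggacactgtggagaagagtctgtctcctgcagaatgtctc
Iglc3 (chr16:19065368-19065667): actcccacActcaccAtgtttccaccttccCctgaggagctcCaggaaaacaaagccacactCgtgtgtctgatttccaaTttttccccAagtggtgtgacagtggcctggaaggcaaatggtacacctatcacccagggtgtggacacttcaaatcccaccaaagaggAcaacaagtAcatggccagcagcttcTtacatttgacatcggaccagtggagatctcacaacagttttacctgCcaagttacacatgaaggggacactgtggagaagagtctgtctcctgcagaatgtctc
The 2 stretches are 96.3% identical, whereas Iglc1 and Iglc2 are 73.4% identical over their coding sequences. Of the 50-base windows of Iglc2, 92.3% occurred in no other gene's transcripts, and of those of Iglc3 77.7%. Counting both strands, the gene that shared the most windows was Iglc3 for Iglc2 and 2010309G21Rik for Iglc3. All 100-base windows of both genes occurred in no other gene's transcripts. How the deposited counts treated reads that match both genes is not given in the sources used here. Counts per gene also do not show which allele of the lambda locus a read came from, or how reads that differ from the GRCm38 sequence were assigned, and the part of either in the Iglc2 values was not tested.

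Iglc3 had 212.5, 260.9 and 187.6 CPM in RH HOMO and 210.1, 216.6, 195.9 and 198.8 CPM in RH HET, against 241.5, 206.5 and 208.1 CPM in RH cohort WT. It had 134.6, 164.8 and 179.4 CPM in KO, against 157.0, 172.8 and 156.4 CPM in KO cohort WT. The groups overlapped in each comparison and the log2 changes were 0.01 ± 0.12 in RH HOMO, -0.09 ± 0.11 in RH HET and -0.02 ± 0.12 in KO (SE), with 95% intervals of -0.24 to 0.26, -0.32 to 0.14 and -0.27 to 0.23. For each Iglc3 count there were 0.218 to 0.229 Iglc2 counts in RH HOMO and 0.264 to 0.331 in RH HET, against 0.399 to 0.434 in RH cohort WT. KO libraries had 0.630 to 0.709, against 0.453 to 0.498 in KO cohort WT. The 5 groups did not overlap in this ratio, which was chosen after the values of both genes were seen and was not tested. Iglc4, the fourth lambda row in the table, was at 0 in RH HOMO 1 and at most 0.707 CPM elsewhere.

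**Figure D5:**
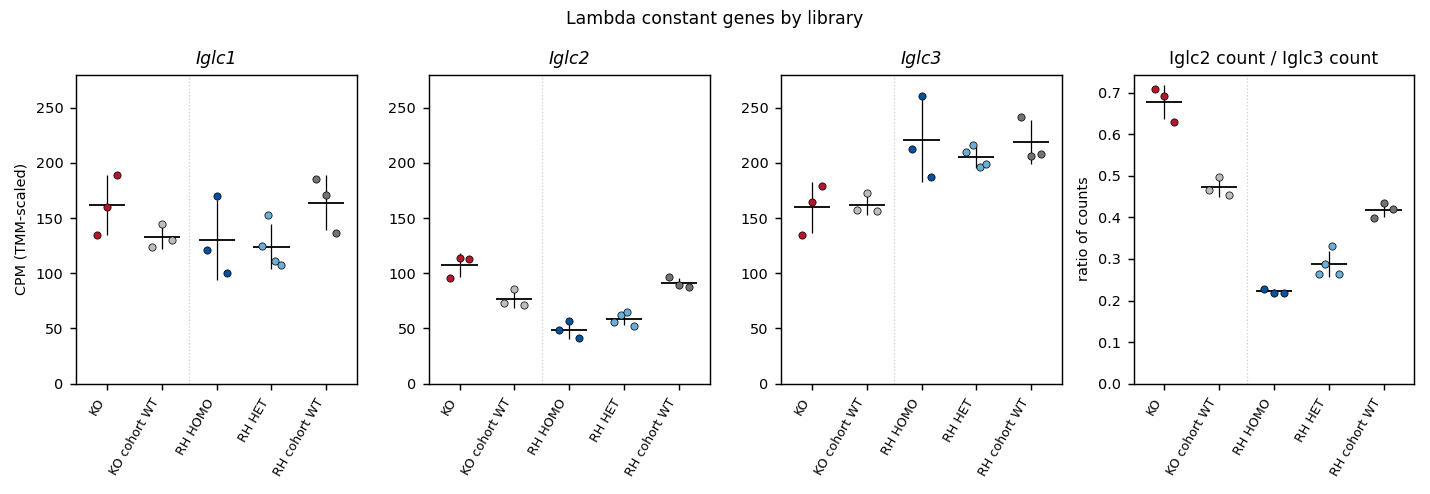
Levels of Iglc1, Iglc2 and Iglc3 (CPM, TMM-scaled) and the ratio of Iglc2 to Iglc3 counts, with 1 point per library, the group mean as a line and the SD as a bar. The ratio is highest in KO, at 0.630 to 0.709, and lowest in RH HOMO, at 0.218 to 0.229, while Iglc3 itself overlaps between each altered group and its wild type.

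Of the light constant counts of Igkc, Iglc1 and Iglc2, kappa made up 95.6%, 96.0% and 95.5% in RH HOMO and 94.7%, 94.9%, 94.5% and 95.1% in RH HET, against 94.3%, 93.0% and 93.1% in RH cohort WT. It made up 91.7%, 92.7% and 91.9% in KO, against 93.1%, 92.4% and 93.8% in KO cohort WT. RH HOMO lay above RH HET and RH HET above RH cohort WT with no overlap, and KO overlapped its wild type. With Iglc3 and Iglc4 counted as light chain genes too, kappa made up 90.0% to 91.7% in RH HOMO and 89.1% to 90.2% in RH HET, against 87.4% to 89.95% in RH cohort WT, so RH HET overlapped both other groups and RH HOMO lay just above RH cohort WT. The kappa share was 2.19 points higher in RH HOMO (exact permutation p = 0.1, the smallest possible), 1.31 points higher in RH HET (exact permutation p = 0.0286, the smallest possible) and differed by -0.988 points in KO (exact permutation p = 0.2). Adjusted over the 44 share tests, these exact p-values were 0.251, 0.251 and 0.367. Iglc2 made up 1.20% ± 0.164 of light counts in RH HOMO and 1.69% ± 0.231 in RH HET, against 2.35% ± 0.382 in RH cohort WT, and 3.16% ± 0.229 in KO, against 2.53% ± 0.328 in KO cohort WT (SD).

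The 2 wild type groups also differed, which bears on any level read across cohorts. In RH cohort WT against KO cohort WT 5.06% of all genes were called, and among the members Ighg2c was higher in RH cohort WT, by a log2 difference of 1.97 ± 0.55 (SE, edgeR adjusted p = 0.0461). That call was lost when RH cohort WT 1, RH cohort WT 2, KO cohort WT 1, KO cohort WT 2 or KO cohort WT 3 was left out, with log2 differences between 1.49 and 2.30 and adjusted p between 0.108 and 0.192. Igha (1.03 ± 0.33), Ighg3 (0.64 ± 0.19) and Ighg1 (-0.29 ± 0.13) did not pass the test. Iglc3 was also higher in RH cohort WT, by 0.43 ± 0.12 (SE, edgeR adjusted p = 0.0447). The Iglc3 call was lost in 5 of 9 alternative fits and held in 1 of the 6 with a library left out. Its log2 difference lay between 0.36 and 0.48 throughout.

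Genes that carry out or steer class switching were examined next. Of 28 tested genes of the switch recombination machinery, 0 were called in KO, against 1.3% of all genes, and 0 in RH HET, against 0.0181%, while 2 fell in RH HOMO, against 1.57% of all genes called. These were Parp1, which encodes a poly(ADP-ribose) polymerase that senses DNA breaks, at 490.2 ± 66.9 CPM in RH HOMO against 761.4 ± 15.8 CPM in RH cohort WT (SD, n = 3 each, log2 change -0.64 ± 0.10 SE, edgeR adjusted p = 0.00320), and Hmces, which encodes a protein that binds abasic sites in DNA (-0.54 ± 0.11, adjusted p = 0.0162). Neither gene was called in KO or RH HET. Parp1 had log2 changes of -0.37 in KO (edgeR adjusted p = 0.0838) and -0.27 in RH HET (edgeR adjusted p = 0.557). Hmces had 0.0057 in KO and -0.33 in RH HET (edgeR adjusted p = 0.990 and 0.427). The list's median log2 change was -0.06 in KO, -0.06 in RH HOMO and -0.11 in RH HET.

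Of 21 tested genes for cytokine and CD40 inputs to switching, 1 fell in KO, against 1.3% of all genes called. It was Ifngr1, a receptor chain for interferon gamma (log2 change -0.48 ± 0.10 SE, edgeR adjusted p = 0.0216). In RH HOMO 1 fell, against 1.57% of all genes, Tnfrsf13b, which encodes the receptor TACI (-0.41 ± 0.09, edgeR adjusted p = 0.0390). In RH HET 0 were called, against 0.0181%. By direction, 9 of the 21 had a positive log2 change in KO, 14 in RH HOMO and 16 in RH HET. The list's median log2 change was -0.02 in KO, 0.11 in RH HOMO and 0.07 in RH HET. Of 13 transcription factors that act on the immunoglobulin loci and 6 genes that process heavy chain mRNA, 0 were called in these 3 comparisons. Of 12 tested plasma cell genes 0 were called, and the gene with the smallest p in KO was Jchain, which encodes the chain that joins IgM and IgA subunits, at 387.9, 409.7 and 401.5 CPM in KO against 498.1, 499.6 and 468.4 CPM in KO cohort WT (log2 change -0.29 ± 0.08 SE, adjusted p = 0.0925). Summed plasma cell gene levels were 1268 to 1315 CPM in KO against 1424 to 1433 CPM in KO cohort WT, and 1373 to 1486 CPM in RH HOMO against 1337 to 1420 CPM in RH cohort WT.

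Among germinal centre markers 1 of 14 fell in KO, Rgs13, a regulator of G protein signalling (log2 change -1.58 ± 0.23 SE, adjusted p = 0.00223), and 1 of 14 fell in RH HOMO, Mef2b, a transcription factor (-0.57 ± 0.11, adjusted p = 0.0143). Of the 6 memory B cell markers 0 were called in KO, RH HOMO or RH HET. The share of all tested genes called was 1.3% in KO, 1.57% in RH HOMO and 0.0181% in RH HET. Of the 4 tested T cell markers, Thy1 was higher in RH HOMO, at 1.32 ± 0.470 CPM against 0.300 ± 0.111 CPM in RH cohort WT (SD, n = 3 each, adjusted p = 0.0282), while the other 3, none of them called, had negative log2 changes and the median of the 4 was -0.58. Of the 4 tested erythroid markers, Car2 was higher in KO (log2 change 1.004 ± 0.22 SE, edgeR adjusted p = 0.0345). Only 2 of these 4 had a positive log2 change in KO, with a median of 0.20. Summed erythroid marker levels overlapped, at 9.12 to 11.6 CPM in KO and 7.79 to 10.5 CPM in KO cohort WT.

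Crebbp lies on chromosome 16 as the lambda genes do, with 15.0 Mb between its end (chr16:4081328-4213997, GRCm38) and Iglc2 (chr16:19198396-19200351). Of 141 tested genes between Crebbp and the lambda constant genes, leaving out immunoglobulin and T cell receptor genes, 3 were called in KO (Clec16a and Zdhhc8 higher, Litaf lower), which is 2.13%, and 4 in RH HOMO, which is 2.84%, among them Clec16a and Dgcr6 higher and Txndc11 lower. Within 5 Mb of the lambda genes, Etv5 and Zdhhc8 were higher in KO and Dgcr6 was higher and Gm31814 lower in RH HOMO, each 2 of 137 tested genes or 1.46%. None of the 92 tested genes around the heavy chain genes and none of the 70 around Igkc were called in KO, RH HOMO or RH HET. For comparison, 1.3% of all tested genes were called in KO, 1.57% in RH HOMO and 0.0181% in RH HET.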

How the data were processed

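The authors deposited 1 table of integer counts, with genes in rows and 16 libraries in columns. CASAVA 1.8, HISAT2, featureCounts and mm10 appear in the submitters' processing notes, with no other setting. Per the labels' protocols, total RNA went into TruSeq v2 libraries, which do not mark strand, so antisense reads cannot be told apart. Groups were read from titles, because several sample tags were shifted against their values, and replicate numbers only name libraries. The fit used edgeR 4.0.16 in R 4.3.3: filterByExpr, TMM, 5 group means fitted to 16 libraries, quasi-likelihood tests and Benjamini-Hochberg adjustment over 16606 genes. Counts of libraries of 1 group differed beyond sampling noise (chi-square per degree of freedom 17.7 to 225). DESeq2 1.42.0 was an alternative. Standard errors are the log2 change divided by the square root of F. Shares were tested with two-sided exact permutation tests. Levels per kb use the exonic length of GENCODE M21. The edgeR fit was checked on simulated counts and the permutation test on a few made-up values, while DESeq2 was not checked.

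Named were all members, Ighe, Iglc3 and Iglc4, and up to 2 called genes of each list with the smallest p. Called neighbours of the loci were named up to 3 per comparison, with the 3 genes most alike for Ighm, Ighg1, Igha, Igkc and Iglc2. Lck, Pecam1 and Jchain were named although not called. Most other lists with no called gene have no gene named. The members, lists and rules were chosen with earlier results of these data known.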

Additional observations from a re-analysis of the deposited data

Results flagged for a closer look

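The effects of the 2 Crebbp alterations on Ighg1 and on Iglc2 differed by a test of the difference itself. For Ighg1 the change in RH HOMO less that in KO was -1.02 on the log2 scale (SE 0.19, edgeR adjusted p = 0.0282), with a log2 change of -0.57 in RH HOMO and 0.45 in KO. For Iglc2 it was -1.39 (SE 0.17, adjusted p = 0.00191), with -0.90 in RH HOMO and 0.49 in KO. All 3 RH HOMO libraries were below all 3 RH cohort WT libraries for both genes, and all 3 KO libraries were above all 3 KO cohort WT libraries. The comparisons come from different cohorts, so cohort and alteration cannot be told apart. No single library stood out in RH HET, the 1 group of 4, for any of 21 levels and shares.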

How the results depend on the processing

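The fall of Iglc2 in RH HOMO kept its call in 13 of 14 alternatives and that of Ighg1 in 6 of 14. No called member changed direction. No paired analysis was possible because the replicate numbers only follow accession order. Causes of the changes below were not tested.

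Genes called in KO (216) became 549 with DESeq2, 699 in a fit of the compared libraries and 38 to 87 when a library was left out. In RH HET (3) they became 19 without the count filter, 39 with DESeq2, 0 in the compared libraries, 11 with all wild types as control, 1 with RH cohort WT 1 moved to the KO cohort, 6 without both libraries that stood apart (RH HOMO 2, RH cohort WT 1), and 0 to 5 with a library left out. In RH HOMO (261) they became 648 with DESeq2, 0 in the compared libraries, 657 with all wild types, 102 with the moved library and 115 to 251 with a library left out. In RH HOMO against RH HET (0) they became 63 without the filter, 122 with DESeq2, 2 in the compared libraries or without both libraries, and 0 to 1 with a library left out. Members called higher in KO (0) became 1 without the filter or with all wild types, and 2 with DESeq2 or the compared libraries. Members called lower in RH HET (0) became 1 without the filter or with DESeq2. Members called lower in RH HOMO (2) became 0 in the compared libraries, 1 with the moved library or without both libraries, and 1 to 2 with a library left out.

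Some log2 changes that were not called changed sign. With DESeq2 size factors, Igha in KO was -0.0015 and Iglc3 in RH HOMO -0.0007, and Iglc3 was -0.0006 with DESeq2. Without the filter Igha in KO was -0.0082. With all wild types as control, KO gave Ighg2c -0.63, Igha -0.60 and Igkc -0.054, RH HET gave Igkc 0.024 and Iglc3 0.11, and RH HOMO gave Ighg2c 0.35 and Igha 0.062. With the moved library, KO gave Ighg2c -0.11, Igha -0.0495 and Igkc -0.052, and RH HET gave Igkc 0.039. Without both libraries, Igkc in RH HET was 0.048 and Iglc3 in RH HOMO -0.051, RH HOMO against RH HET gave Ighd -0.015, Igkc -0.012, Iglc1 -0.18 and Iglc3 -0.044, and the difference of effects gave Ighg2b 0.51 and Iglc3 -0.033.

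With 1 library left out, log2 changes in KO ran from -0.225 to 0.23 for Ighg3, -0.12 to 0.12 for Igha and -0.10 to 0.092 for Iglc3. In RH HET they ran from -0.067 to 0.12 for Ighg3, -0.11 to 0.61 for Ighg2b and -0.28 to 0.048 for Igkc. In RH HOMO they ran from -0.070 to 0.67 for Ighg2b, -0.77 to 0.16 for Ighg2c, -0.16 to 0.30 for Igkc and -0.13 to 0.10 for Iglc3. RH HOMO against RH HET gave -0.090 to 0.10 for Ighd, -0.26 to 0.44 for Ighg2b, -0.011 to 0.43 for Igkc, -0.17 to 0.21 for Iglc1 and -0.044 to 0.19 for Iglc3. The difference of effects gave -0.34 to 0.13 for Ighd, -0.61 to 0.13 for Ighg2b, -0.33 to 0.14 for Igkc and -0.11 to 0.12 for Iglc3, and RH cohort WT against KO cohort WT gave -0.13 to 0.018 for Ighm. Share differences, in percentage points, ran from -1.62 to 0.289 for Ighg3 and -0.025 to 0.0013 for Igha in KO, from -1.06 to 0.345 for Ighg3 and -0.828 to 2.85 for Ighg2b in RH HET, and from -0.427 to 4.38 for Ighg2b and -0.96 to 0.135 for Ighg2c in RH HOMO. RH HOMO against RH HET gave -0.142 to 0.19 for Ighd and -1.49 to 3.25 for Ighg2b, and -0.0355 for Ighd per exonic length.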
